A study of Mus musculus with 4 samples.

Results

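Mitotic cyclins, the Cdc25 phosphatases and the regulators of the anaphase-promoting complex were followed in mouse pancreatic islets with and without the retinoblastoma gene Rb1. The group holds 10 genes of the 22911 named on the arrays: Ccna2, Ccnb1, Ccnb2, Cdc20, Ube2c, Fbxo5, Pttg1, Espl1, Cdc25b and Cdc25c. They were taken by name, with earlier results of these data known. Their probes were found through the RefSeq accession in the array files. This gave 16 probes of 56605, and 5 of the 10 genes had more than 1 probe. Islet RNA of 4 mice was hybridised to 1-colour arrays, 1 mouse per array. The 2 controls, titled wild type by the submitters, had the genotype Pdx1-Cre, and the 2 Rb-deficient mice had the genotype Pdx1-Cre:Rbf/f, so that all 4 carried the Cre transgene. In such mice Cre cuts out the floxed Rb1 sequence where the Pdx1 promoter was active, in the pancreatic epithelium, so that immune, endothelial and stromal cells of an islet preparation keep their floxed alleles. The labels do not give age, sex or strain.

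Entry into mitosis is driven by Cdk1 bound to cyclin A or cyclin B, and Cdc25 phosphatases switch this kinase on by taking off inhibitory phosphates. Exit from mitosis depends on the anaphase-promoting complex, or APC/C, a ubiquitin ligase that marks the mitotic cyclins and securin for destruction and thereby frees separase to cut the cohesin that holds sister chromatids together. Most adult beta cells are out of the cell cycle, where transcription of mitotic genes is held down by complexes that bind the CHR element (cell cycle genes homology region) of their promoters, often beside CCAAT boxes bound by NF-Y.

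The promoters of the members were set side by side because several of the genes are textbook examples of this arrangement. RefSeq windows on GRCm38.p6, from 250 bases before to 50 after the annotated start, were at hand for 8 of the 10 genes, and Ccna2 and Cdc25c are only named. The windows printed are Ccnb1 at chr13:100786437-100786736 on the minus strand, Ccnb2 at chr9:70421505-70421804 on the minus strand, Cdc20 at chr4:118437294-118437593 on the minus strand, Ube2c at chr2:164769679-164769978 on the plus strand and Pttg1 at chr11:43425932-43426231 on the minus strand. The first 4 are genes whose 2 groups of arrays did not overlap, and Pttg1 is shown as the member whose arrays split otherwise. These windows were thus picked by signal, and the windows not printed do not follow the same division. Fbxo5, with 2 CHR matches and 3 CCAAT boxes, overlapped between groups, while Cdc25b, without a CHR match, did not. A link of motifs and signal was not tested. Each sequence runs 5′ to 3′ along the gene, and capitals mark the CHR letters (TTTGAA and also TTTAAA) and the CCAAT box, read on either strand.
Ccnb1: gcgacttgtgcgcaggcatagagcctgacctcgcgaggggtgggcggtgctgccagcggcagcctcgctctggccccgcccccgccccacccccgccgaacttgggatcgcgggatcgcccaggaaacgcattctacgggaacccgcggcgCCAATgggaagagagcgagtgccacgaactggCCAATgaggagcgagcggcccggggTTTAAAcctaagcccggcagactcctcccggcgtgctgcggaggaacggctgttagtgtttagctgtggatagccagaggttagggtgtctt
Ccnb2: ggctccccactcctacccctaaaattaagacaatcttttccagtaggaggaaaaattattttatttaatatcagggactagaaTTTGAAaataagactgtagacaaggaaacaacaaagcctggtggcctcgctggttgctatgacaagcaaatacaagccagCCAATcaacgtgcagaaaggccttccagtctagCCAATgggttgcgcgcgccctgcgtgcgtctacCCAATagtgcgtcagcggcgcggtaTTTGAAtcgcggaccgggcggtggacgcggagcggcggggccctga
Cdc20: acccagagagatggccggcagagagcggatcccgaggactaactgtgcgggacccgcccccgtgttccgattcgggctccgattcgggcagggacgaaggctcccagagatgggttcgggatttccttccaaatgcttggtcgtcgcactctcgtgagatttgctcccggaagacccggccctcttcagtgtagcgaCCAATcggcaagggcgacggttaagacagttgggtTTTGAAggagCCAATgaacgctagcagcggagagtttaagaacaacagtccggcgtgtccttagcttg
Ube2c: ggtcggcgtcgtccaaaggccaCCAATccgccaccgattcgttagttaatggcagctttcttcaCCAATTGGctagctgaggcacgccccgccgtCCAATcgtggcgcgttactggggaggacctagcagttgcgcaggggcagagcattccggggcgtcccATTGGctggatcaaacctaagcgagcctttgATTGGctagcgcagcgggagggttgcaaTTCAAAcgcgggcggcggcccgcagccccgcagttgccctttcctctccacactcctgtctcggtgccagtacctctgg
Pttg1: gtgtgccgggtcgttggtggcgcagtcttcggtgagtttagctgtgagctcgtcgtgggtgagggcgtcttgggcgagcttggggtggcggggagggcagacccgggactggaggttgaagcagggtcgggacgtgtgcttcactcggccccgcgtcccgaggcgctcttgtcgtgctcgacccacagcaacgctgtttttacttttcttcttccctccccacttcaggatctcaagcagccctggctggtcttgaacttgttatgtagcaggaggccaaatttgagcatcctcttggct
A CHR match stood in 6 of the 8 windows, against 27.6% of 32851 promoter windows of the same length. CCAAT was found in 7 of 8, against 37.4%, and a CHR match together with at least 2 CCAAT boxes in 5 of 8, against 3.13%. These 5 were Ccnb1, Ccnb2, Cdc20, Ube2c and Fbxo5. In Ube2c there were 6 CCAAT matches, of which 2 on opposite strands overlap, in Ccnb2 and Fbxo5 3 each and in Ccnb1 and Cdc20 2 each. Espl1 had 1 of each motif, Cdc25b had a single CCAAT box, and the Pttg1 window had neither set of letters. Of the letters of E2F sites, TTTGGCG and likewise TTTCCCG were searched on both strands, and 0 of the 8 windows held either, against 4.84% of all. Counted from the start site, the CHR letters of Ccnb1 began at base -42, those of Ube2c at -29, of Espl1 at -27 and of Cdc20 at -18, while the nearer match of Ccnb2 began at base 5 after the start and those of Fbxo5 at bases 4 and 13. These are matches of letters and no measure of binding.

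**Figure D1:**
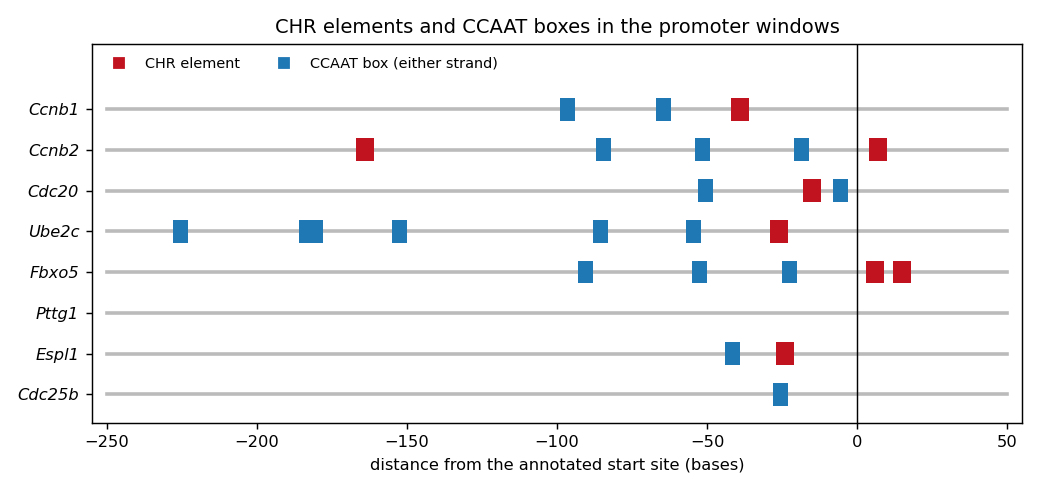
Positions of CHR matches (red) and CCAAT boxes (blue) in the promoter windows of 8 genes, with distance from the annotated start site in bases on the horizontal axis. A CHR match lies between bases -42 and 13 in Ccnb1, Ccnb2, Cdc20, Ube2c, Fbxo5 and Espl1, and Pttg1 has no match of either kind.

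Signal is the log2 processed intensity after subtracting, on each array, the 75th percentile of its non-control probes, so that 0 is the level of that percentile and a difference of 1 is 2-fold. The level of a gene is that of its probe with the highest mean over the 4 arrays, called the lead probe. All 4 arrays lay on 1 slide and no spot was saturated. The share of probes well above background was 76.5% for control array 1 and 59.0% to 59.9% elsewhere. Control array 1 alone had all 4 Y-linked genes checked well above background, and there alone Xist was not, so the mice differed in sex within and between groups. Rb1 itself gave 0.28 and 0.86 in control and -0.48 and -0.90 in Rb-deficient islets on its lead probe, 2.40-fold lower (limma adjusted p 0.744). A dimmer Rb1 probe gave -2.23 and -2.11 against -3.35 and -4.10, 2.94-fold lower (limma adjusted p 0.655). Neither was called. On both, the Rb-deficient arrays lay below both controls, as on 21.3% of all probes. Whether the probes lie in the deleted part is not known here. All 8 beta cell markers, the insulin genes among them, and all 10 acinar markers were well above background on every array. The 11 member probes that entered the test were well above background on all 4 arrays, so none passed the filter through 1 group alone, and the other 5 are given as values only. In bulk islet RNA, a change in the number of dividing cells and a change in the RNA of each such cell cannot be told apart.

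The lead probes of the 9 genes tested had a higher mean in Rb-deficient islets, by 0.38 to 2.28. Cdc25c, which was too dim to test, differed by 0.38 in measured mean, and with it the median of the 10 was 1.32, against a median of -0.07 over all 33846 probes tested. On 7 of the 10, both Rb-deficient arrays lay above both controls, where 14.8% of all probes did so, and on 0 did both lie below, as on 21.3% of all probes. At least 2-fold higher were 6 of the 10, against 1.57% of all probes. With normexp background correction only Ccnb2 and Ube2c, 2 of the 10, stayed at that size, with differences of 1.26 and 1.23, and Ccnb1 moved from 1.78 to 0.68, Ccna2 from 1.50 to 0.87, Cdc20 from 1.50 to 0.97 and Espl1 from 1.13 to 0.35. None of the 9 genes tested was called by limma after Benjamini-Hochberg adjustment over all probes, with adjusted p values of 0.708 to 0.908, and among all probes the share called was 0% (0 of 33846, with 1894, or 5.6%, at an unadjusted p under 0.05). Of the 11 member probes tested, 6 had an unadjusted p under 0.05 and a higher mean, against 1.43% of all probes. With 2 mice against 2, the exact permutation p of a probe cannot go below 0.333.

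**Figure D2:**
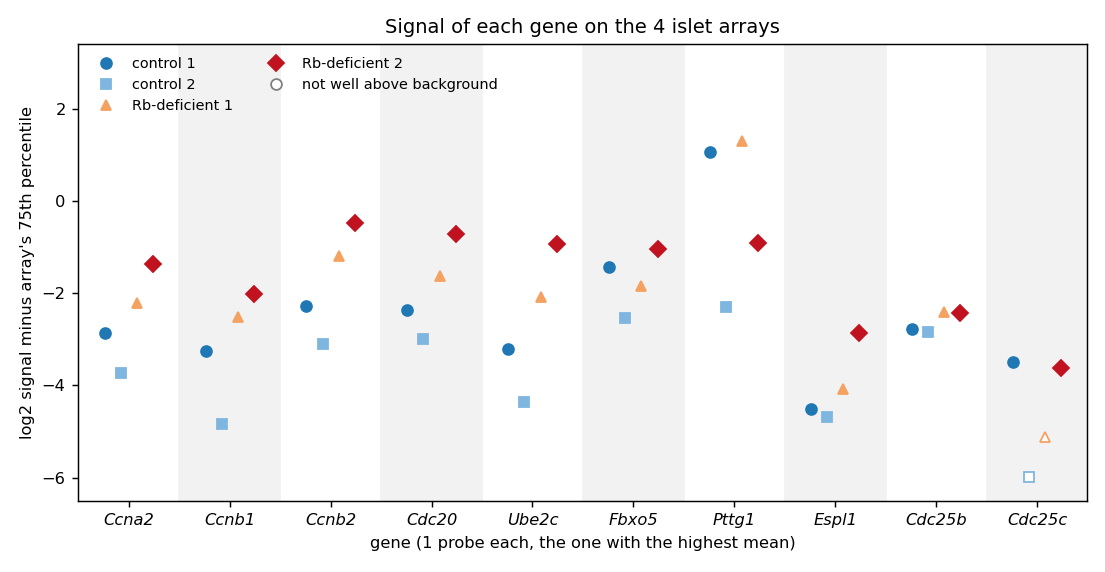
Log2 signal relative to the array's 75th percentile (vertical axis) of the lead probe of each gene on each of the 4 arrays, with open symbols for signals not well above background. For Ccna2, Ccnb1, Ccnb2, Cdc20, Ube2c, Espl1 and Cdc25b both Rb-deficient arrays stand above both controls, and control 2 is the lowest array for all 10 genes.

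The cyclins were among the members with the larger differences. Ccnb2, which encodes cyclin B2, had log2 signals of -2.27 and -3.10 on control arrays 1 and 2 and of -1.20 and -0.48 on Rb-deficient arrays 1 and 2. The arrays of the groups did not overlap, and the lower Rb-deficient value was 1.07 above the higher control. This was 3.60-fold higher in mean, with a difference of 1.85, a standard error of 0.43 and a 95% interval of 0.64 to 3.05 (limma adjusted p 0.708). Ccnb1, the gene of cyclin B1, the main cyclin of mitotic Cdk1, gave -3.26 and -4.83 in control and -2.53 and -2.01 in Rb-deficient islets on its lead probe. Its difference was 1.78, or 3.42-fold, with a 95% interval of 0.04 to 3.51 (limma adjusted p 0.863). The control arrays were 1.57 apart here, and Rb-deficient array 1 exceeded control array 1 by 0.73.

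Ccna2 encodes cyclin A2, which acts in S phase and at the start of mitosis. Its lead probe gave -2.85 and -3.73 in control and -2.21 and -1.37 in Rb-deficient islets, 2.83-fold higher with a difference of 1.50 and a 95% interval of 0.19 to 2.81 (limma adjusted p 0.837). The other Ccna2 probe, at -3.83 and -4.90 against -2.73 and -2.33, differed by 1.83, so that on both probes every Rb-deficient array lay above every control. In the APC/C cycle cyclin A2 is destroyed before the B cyclins.

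Ube2c and Cdc20, which work with the APC/C, stood in the same order of arrays. Ube2c encodes the ubiquitin-conjugating enzyme that starts chains on APC/C substrates, and it had the largest difference of the 10. Its signal was -3.22 and -4.35 in control islets and -2.07 and -0.93 in Rb-deficient islets. The difference of 2.28, or 4.87-fold, had a standard error of 0.60 and a 95% interval of 0.59 to 3.98 (limma adjusted p 0.782), and 0.219% of all probes tested differed by more in this direction. Cdc20, the coactivator that brings substrates to the APC/C in metaphase and the target of the spindle checkpoint, had -2.37 and -3.00 on its lead probe in control and -1.64 and -0.72 in Rb-deficient islets. That is 2.83-fold higher, with a difference of 1.50 and a 95% interval of 0.29 to 2.72 (limma adjusted p 0.802). On the other Cdc20 probe the values were -2.14 and -2.94 against -2.04 and -1.03, a difference of 1.01 whose interval of -0.37 to 2.38 reached below 0. Here Rb-deficient array 1 was above control array 1 by a narrow margin.

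Fbxo5 encodes Emi1, which blocks the APC/C from late G1 into G2 and so lets cyclins build up. It differed less than Ube2c and Cdc20 and its groups overlapped, with -1.44 and -2.55 in control and -1.83 and -1.05 in Rb-deficient islets. Its mean difference of 0.55 had a 95% interval of -0.90 to 2.00 (limma adjusted p 0.866). Rb-deficient array 1 lay below control array 1 by 0.39, and without control array 2 nothing of the difference was left (-1.4e-05). The Fbxo5 window carried 2 CHR matches and 3 CCAAT boxes.

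**Figure D3:**
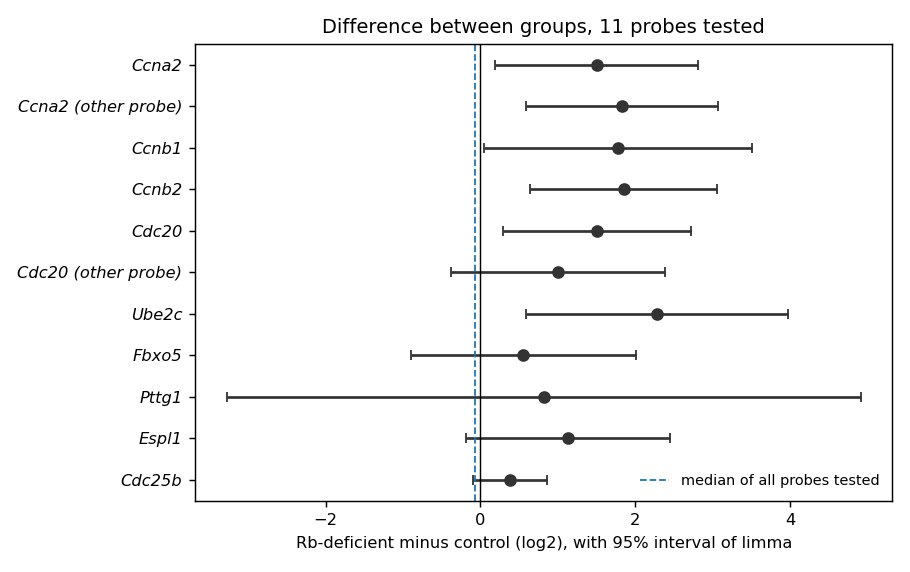
Log2 difference, Rb-deficient minus control (horizontal axis), for the 11 probes tested, with limma's 95% interval as the bar and the median of all probes tested as the dashed line at -0.07. The bars of 6 probes, of Ccna2, Ccnb1, Ccnb2, Cdc20 and Ube2c, lie above 0, and the bar of Pttg1 spans -3.28 to 4.91.

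Of the proteins that control the cut of cohesin, separase and securin differed in their pattern. Espl1, the gene of separase, the protease that opens the cohesin ring, had close control values of -4.51 and -4.69 against -4.08 and -2.87 in Rb-deficient islets. The groups did not overlap, but the difference of 1.13, or 2.19-fold, came more from Rb-deficient array 2, which was 1.20 above Rb-deficient array 1, and its 95% interval was -0.19 to 2.45 (limma adjusted p 0.863).

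Pttg1, which encodes securin, the inhibitor of separase, split the arrays in another way. It gave 1.06 and -2.31 in control islets and 1.29 and -0.91 in Rb-deficient islets. In each group the array numbered 1 was high and the array numbered 2 low, 3.37 apart in control and 2.20 apart in Rb-deficient islets. The mean difference of 0.82 was smaller than the spread within either group (SD 2.38 and 1.56, n = 2 each), with a 95% interval of -3.28 to 4.91 (limma adjusted p 0.908). It turned to -0.87 without control array 2 and to -0.28 without Rb-deficient array 1. A dimmer Pttg1 probe had -3.60 and -6.82 against -5.03 and -5.92, and it was well above background on control array 1 alone.

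Of the Cdc25 phosphatases, Cdc25b had a small difference and Cdc25c could not be tested. Cdc25b, which acts on Cdk1 at the start of mitosis, had -2.77 and -2.84 in control and -2.41 and -2.44 in Rb-deficient islets on its lead probe. The groups did not overlap and both were tight, so that a difference of 0.38, or 1.30-fold, had a standard error of 0.17 and a 95% interval of -0.10 to 0.86 (limma adjusted p 0.863). It was the smallest difference among the 9 genes tested, and 7.32% of all probes differed by more in this direction. Cdc25c, whose product amplifies Cdk1 activity in mitosis, had a single probe with -3.49 and -5.98 in control and -5.11 and -3.62 in Rb-deficient islets. This probe was well above background on control array 1 and Rb-deficient array 2 alone, so it was not tested. Its groups overlapped, the controls lay 2.49 apart, and with an array left out the difference ranged from -0.87 to 1.62.

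The probes of a gene did not always rank the arrays alike. Both probes of Ccna2 and both of Cdc20 gave the same order of arrays. For Ccnb1 the 2 dimmer probes did not, with -4.79 and -7.22 against -6.94 and -4.74 on the second and -2.55 and -6.92 against -4.73 and -5.16 on the third. The mean difference was 0.16 on the second and -0.21 on the third, against 1.78 on the lead probe. Each was well above background on control array 1 and on 1 of the 2 Rb-deficient arrays. A second Cdc25b probe, at -4.59 and -6.75 against -5.76 and -5.72, was well above background on control array 1 alone. Of the 5 member probes that were not tested, 4 were brightest on control array 1, and so were 82.6% of all 22752 probes that were not tested and measured on all arrays.

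**Figure D4:**
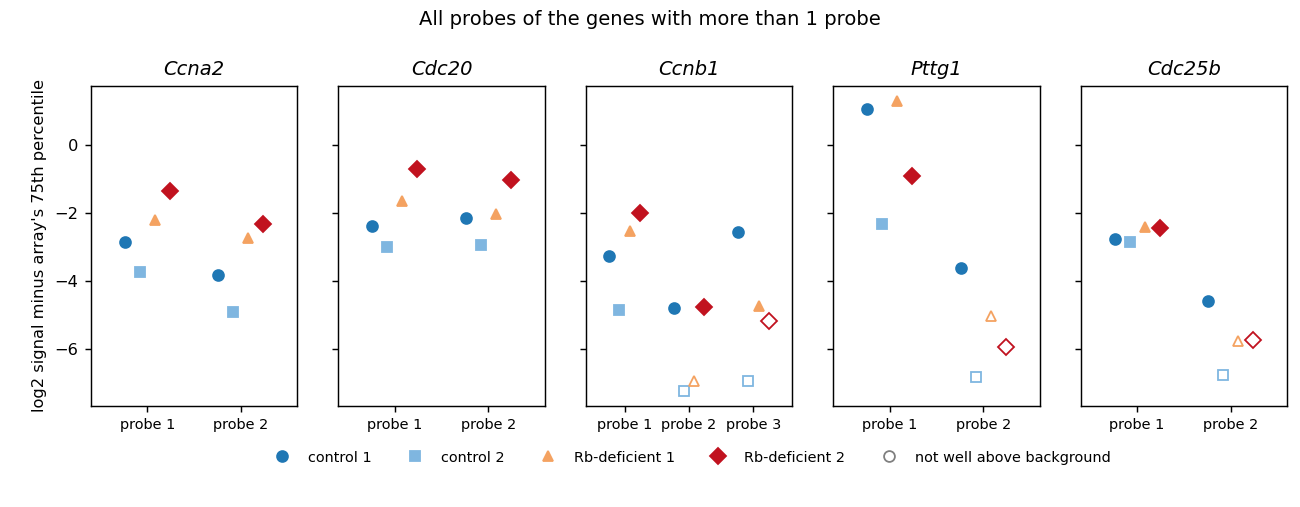
All probes of the 5 genes with more than 1 probe, on the same log2 scale (vertical axis), with open symbols for signals not well above background. Both probes of Ccna2 and Cdc20 rank the arrays alike, while the dimmer probes of Ccnb1, Pttg1 and Cdc25b show control 1 high and the other arrays lower, except for Rb-deficient 2 on the second Ccnb1 probe.

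The members also separated mice of the same genotype. Control array 2 was the lowest of the 4 for all 10 lead probes, which held for 19.0% of all probes tested. Control array 1 was above control array 2 for all 10 by a median of 0.99, where 60.2% of all probes tested were higher on control array 1. Of the 22752 probes not tested, 91.9% were higher on control array 1, while control array 2 was the lowest on 11.3%. Before scaling, the median intensity was 49.2 on control array 1 and 31.7 to 35.5 on the other arrays. Control array 1 also stood apart in its sex-linked genes. Whether dim signal or sex had a part in the gap between the controls was not tested. Rb-deficient array 2 was above Rb-deficient array 1 for 8 of 10 by a median of 0.81, where 44.6% of all probes were, and the exceptions were Pttg1 and Cdc25b. Relative to the control mean, the median of the members stood at 0.49 and -0.49 in the control mice and at 1.06 and 1.83 in the Rb-deficient mice.

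The size of the difference therefore depended on the mice compared. Rb-deficient array 1 against control array 1 gave a median of 0.54 over the members, with 8 of 10 higher, while Rb-deficient array 2 against control array 2 gave 2.32, with 10 of 10 higher. Rb-deficient array 2 against control array 1 gave 1.37 and Rb-deficient array 1 against control array 2 gave 1.44. All probes tested had medians of -0.07, -0.05, -0.15 and 0.02 in these 4 comparisons, in the order given.

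Markers of other cells also differed between the arrays. Macrophage markers were higher in mean for 9 of 10, and 5 were higher without overlap, against 14.8% of all probes. Their median shifts from the control mean were -0.01 and 0.01 in the control mice and 0.35 and 1.15 in the Rb-deficient mice. Their summed signal, as multiples of the 75th percentile, was 45.3 and 43.5 against 49.3 and 39.2. That sum rests mostly on the brightest marker, Itgam, which alone was lower in mean, at 5.15 and 5.05 against 5.23 and 4.43. Acinar markers were lower for 10 of 10, with a median difference of -0.61 and summed signals of 8044 and 6559 against 6273 and 3833. Alpha cell markers had a median difference of -0.78, with 4 of 5 lower without overlap, against 21.3% of all probes. Their summed signals were 795 and 843 against 722 and 321. Duct markers had -0.66, with 5 of 6 lower, 3 of them without overlap, against the same 21.3% of all probes. Their summed signals were 20.7 and 14.3 in control islets against at most 14.6 in Rb-deficient islets. Endothelial markers were higher for 6 of 6, with a median of 0.19 and summed signals of 23.6 and 25.6 against 25.0 and 32.3. Lymphocyte markers had a median difference of 0.01, and their summed signal was 5.74 and 4.73 against 4.94 and 5.69. No marker of these 6 lists was below background on all arrays. Their part in the values of the mitotic genes was not tested.

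The scaling constant changed the calls. When each array was scaled to its median instead, the median over all probes moved from -0.07 to 0.37 and limma called 572 of 33846 probes, 1.69%, of which 281 were higher and 291 lower. Among them were 6 of the 11 member probes, of Ccna2, Ccnb1, Ccnb2, Cdc20 and Ube2c, with adjusted p values of the lead probes from 7.34e-05 for Ube2c to 0.0208 for Ccna2. In that fit limma's estimate of the prior degrees of freedom was infinite, so that all probes shared a single variance.

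Other genes of the same machinery were read from 7 lists. No gene of these lists was called by limma in either direction. Of the 15 genes of APC/C subunits and the coactivator Cdh1, all tested, 14 were higher and 1 lower in mean, with a median of 0.11, and 4 did not overlap, all higher, where 14.8% of all probes did so. Anapc15, a small subunit, had 0.65 and 0.80 in control and 1.05 and 1.16 in Rb-deficient islets, a difference of 0.38. Cdc26, another small subunit, differed by 0.37, and Anapc11, the RING subunit that binds the ubiquitin-conjugating enzyme, by 0.33 on its lead probe and 0.10 on the other. The subunit list and the 10 mitotic genes thus had medians of 0.11 and 1.32, a gap that was not tested.

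The E2 enzymes and other regulators showed the same small size beside Ube2c. Of 4 genes tested 3 were higher, with a median of 0.14. Ube2s, which extends the chains that Ube2c starts, had 3.28 and 3.05 in control and 3.42 and 3.54 in Rb-deficient islets. Its difference was 0.31 on the lead probe and 0.32 on the other, and on both the groups did not overlap. Cdc25a, the phosphatase that acts earlier in the cycle, differed by 0.19 on its lead probe and by 0.01 on the other, and Ccna1 and Ccnb3 were not tested.

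Cdk1, the kinase these cyclins bind, had -4.90 and -5.68 in control and -3.25 and -2.38 in Rb-deficient islets. It was not well above background on control array 2 and so entered the test through the Rb-deficient arrays, where it is high. The measured means differed by 2.48 (limma adjusted p 0.596). Plk1, the kinase that helps to activate Cdk1 and to destroy Emi1, was 2.27-fold higher, at -2.58 and -3.17 against -2.12 and -1.26. The inhibitory kinase genes Wee1 and Pkmyt1 were 1.78-fold and 1.24-fold higher on their lead probes, but a dimmer Wee1 probe that was not tested differed by -0.66. Of the 8 genes of this list well above background on all arrays, 7 were higher, with a median of 0.34. Higher without overlap were 4, against 15.6% of all probes well above background on all arrays.

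Spindle checkpoint genes, whose products hold Cdc20 until chromosomes are attached, had a median of 0.39 over the 5 genes well above background on all arrays. Of these, 4 were higher, and 3 were higher without overlap, against 15.6% of all probes well above background on all arrays. Trip13, which helps to take the checkpoint complex apart, was 1.69-fold, Mad2l1 1.53-fold and Bub3 1.31-fold higher. Bub1 had no control array well above background and entered the test through the Rb-deficient arrays alone, so it is given as at least 1.67-fold higher, a bound set by the dimmest signal well above background on each control array (measured means -6.28 and -4.59).

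Cohesin and its protectors, the target of separase, had a median of 0.19 over the 11 genes well above background on all arrays. Of these, 10 were higher, and 7 were higher without overlap, against 15.6% of all probes well above background on all arrays. Cdca5, which encodes sororin, was 2.21-fold higher, at -2.81 and -3.36 against -2.41 and -1.47. Sgo1, shugoshin, the protector of centromeric cohesin, was 1.61-fold higher with tight groups, at -2.18 and -2.22 against -1.61 and -1.42. Sgo2a, also of this list, is not among the 11, as it was not well above background on Rb-deficient array 1. It was lower in mean, by -0.58 with overlap, at -4.72 and -3.24 against -5.42 and -3.70. Smc1a and Smc3, which form the ring itself, differed by 0.48 and 0.35. The SCF subunits that act on Emi1 and the Cdc25 proteins had a median of 0.15, with 4 of 5 higher.

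**Figure D5:**
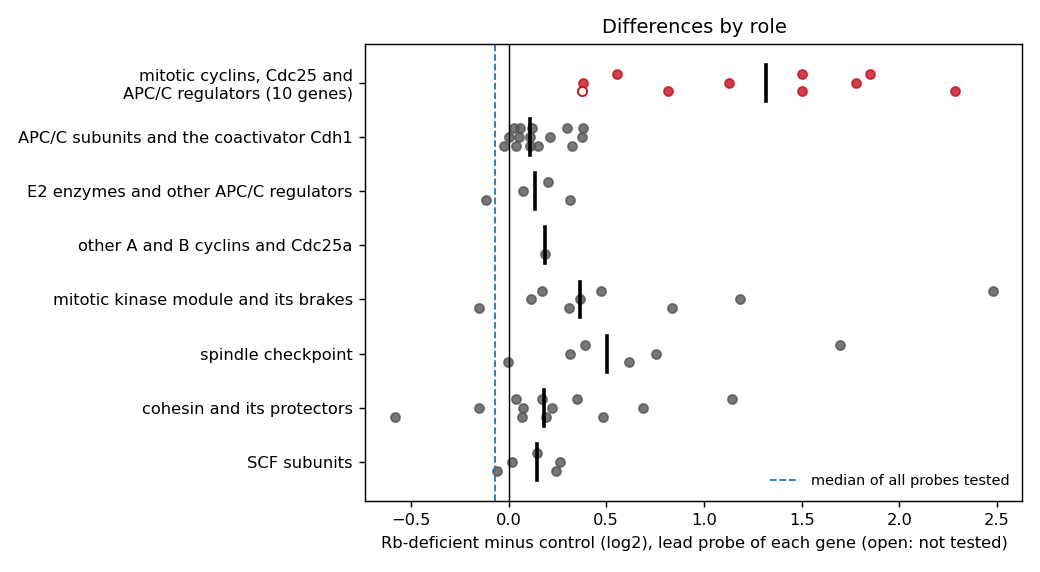
Log2 difference, Rb-deficient minus control (horizontal axis), for the lead probe of each gene, by role, with black bars at the median of each list and the dashed line at the median of all probes tested. The other lists show all genes tested. These include Cdk1 and Bub1, which entered the test through the Rb-deficient arrays, and Sgo2a, not well above background on Rb-deficient array 1. The bars of the kinase, checkpoint and cohesin lists thus stand at 0.37, 0.51 and 0.18. The text gives these lists over genes well above background on all arrays. The 10 mitotic cyclins, Cdc25 genes and APC/C regulators have a median of 1.32, and the 15 subunit and coactivator genes of the complex lie near 0.11.

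By the distance of array profiles, each gene being centred on its own mean over the 4 arrays, Ccna2 was closest to the median profile of the members (0.11 log2 units) and Pttg1 farthest (2.80), where the median over 15690 other named genes was 1.78. Closer to that profile than Pttg1 were 94.6% of these genes, and closer than Cdc25c 18.6%. The 5 genes with the most similar profile were Neil3, a DNA glycosylase gene, at 0.188, the kinetochore gene Nuf2 at 0.194, the centromere gene Cenpm at 0.233, the lectin-like receptor gene Klra17 at 0.264 and Tmem179 at 0.316. Neil3 had -4.12 and -5.04 in control and -3.35 and -2.51 in Rb-deficient islets, a difference of 1.65. Nuf2 differed by 1.36, Cenpm by 1.60, Klra17 by 1.67 and Tmem179 by 1.27. These genes were picked for their likeness to the members, so a higher Rb-deficient mean follows from the choice and is no separate result. With 4 arrays such a likeness is a description of these libraries.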

How the data were processed

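Per the labels' protocols, islet RNA was labelled with Cy3 after amplification with a whole-transcriptome kit. Per the file headers, the deposited processed intensity came from Agilent Feature Extraction 12.0.3.1 with a 1-colour protocol, background-subtracted and detrended, on a design annotated on mm9. A deposited value table of intensity equals this signal times a constant per array and served as an alternative. Accessions named 58.3% of probes through RefSeq (GRCm38.p6).

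Spots with an outlier mark were left out, spots of a probe were averaged, and 7 probes lacking a value on an array were dropped. A probe was tested when both arrays of either group had it well above background. The comparison used limma 3.58.1 under R 4.3.3 (two-sided, no covariates, Benjamini-Hochberg, threshold 0.05), tested on simulated data. The members, lists and motifs were chosen with earlier results of these data known. Named from each list were at most 4 genes with the smallest p, and the 5 genes nearest the members' median profile. The labels give individual mice, and 2 arrays per group limit the precision.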

Additional observations from a re-analysis of the deposited data

How the results depend on the processing

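The median of the members, 1.32, stayed positive under every alternative run. It was 0.65 with normexp background correction on the median spot signal (the mean signal that was planned is not used here), and Cdc25c then turned to -0.0052. With an array left out the median ranged from 1.01 to 1.88, the count of members not overlapping from 7 to 10 (where 22.0% to 32.4% of all probes did not overlap, higher), and the member probes called were 0 throughout. All probes called ranged from 0 to 4901, the latter without control array 2, when probes with signal on control array 1 alone were also tested. Leaving out control array 2 turned Cdc25c and Pttg1 to -0.87 each and Fbxo5 to -1.4e-05, leaving out Rb-deficient array 1 turned Pttg1 to -0.28, and leaving out Rb-deficient array 2 turned Cdc25c to -0.37. Over these fits Pttg1 ranged from -0.87 to 2.50, Cdc25c from -0.87 to 1.62 and Fbxo5 from -1.4e-05 to 1.11. Array median scaling called 572 probes and 6 member probes, where the 75th percentile called 0. Quantile normalization, other filters, 1 probe or a mean per gene and the deposited table left limma's calls at 0. With the replicate number as a block, limma called 0 probes and the median of the members was 1.32. Same-numbered arrays deviated together with a correlation of 0.284 across probes, but the labels give no shared litter or day, so the numbers are not taken as pairs. All arrays shared 1 slide, so slide could not be fitted as a block.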

Other observations

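The split of the arrays by Pttg1 was counted over all probes tested. The cutoff was read from Pttg1 after its pattern was seen, so the count is a description and no test. Taking its own gap of 1.97 between the lower of the arrays numbered 1 and the higher of the arrays numbered 2, 16 of 33846 probes tested, Pttg1 included, had at least this gap with the arrays numbered 1 higher, and 4 had it with the arrays numbered 2 higher. Among the named genes, chosen after their values were seen, Zbtb16, a zinc finger transcription factor gene, had 0.34 and -2.92 in control and -0.38 and -2.85 in Rb-deficient islets. In the other direction Reg3g, a secreted antimicrobial lectin gene, had -1.33 and 1.78 in control and -1.26 and 2.09 in Rb-deficient islets. Fbp1, the gene of a gluconeogenic phosphatase, had -0.45 and 2.48 against -0.52 and 2.02. The genotype groups overlapped for all 3.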
